A study of Mus musculus with 6 samples.

Results

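The Sparc family groups secreted matricellular glycoproteins, which sit in the extracellular matrix and act on cells and other matrix proteins. Its 8 genes examined here, Sparc, Sparcl1, Smoc1, Smoc2, Spock1, Spock2, Spock3 and Fstl1, were taken by symbol from the 27366 features of the deposited expression table, and each was found once. The RNA came from satellite cells of the mouse, which repair skeletal muscle, at day 4 of culture in growth medium with 20% fetal bovine serum and basic FGF, in 3 libraries labelled Islr knockout and 3 labelled control. The labels give the genotypes as knockout and control, and the series design describes a flow cytometry sort by whether cells had Islr. The sources used here do not give strain, age, the deleted part of Islr, any Cre driver or the number of animals, nor whether replicates were separate animals or cultures. p-values therefore reflect the spread among 6 libraries, some of which may be technical.

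Matricellular proteins do little to bear load, and instead tune how cells grip, assemble and read the matrix. Members of this family share a follistatin-like module and a module named for extracellular calcium binding. In Sparc itself the calcium-binding module also binds fibrillar and basement membrane collagens. Sparc is named in the series title together with Islr and phosphorylated ERK, and in muscle it is known as a protein of activated satellite cells and of regenerating tissue.

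The libraries held 16456917 to 20124943 reads on genes in the group labelled Islr knockout and 16776805 to 20531276 in that labelled control. Levels within a gene are given below as scaled reads (gene reads divided by 1 size factor per library), and levels between genes as the authors' FPKM, which also divides by gene length. Islr, the targeted gene, stood at 256.7, 7.38 and 10.9 (in scaled reads) in the libraries labelled Islr knockout 1, 2 and 3, and at 181.1, 12.8 and 1579 in those labelled control 1, 2 and 3. Islr was therefore more abundant in the library labelled Islr knockout 1 than in 2 of those labelled control, so groups are named here by their labels. All 7 markers of satellite cells and myoblasts were present in all 6 libraries; Pax7, the transcription factor that defines satellite cells, ranged from 1319 to 1667 scaled reads in the libraries labelled Islr knockout and from 1233 to 2729 in those labelled control. Libraries with the same replicate number resembled each other across the groups, as their deviations from the group means correlated at 0.689, 0.633 and 0.625 over 14280 genes, so each comparison below also has a fit with the replicate number as a block.

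Sparc dominated the family in every library. It stood at 739, 826 and 812 FPKM in the libraries labelled Islr knockout 1, 2 and 3, and at 829, 592 and 670 FPKM in those labelled control 1, 2 and 3. This made up 0.170% to 0.190% of all reads on genes in the libraries labelled Islr knockout and 0.136% to 0.191% in those labelled control. Sparc ranked between 46 and 67 by FPKM among all features in the libraries labelled Islr knockout and between 60 and 99 in those labelled control. Of the reads on the 8 genes together, Sparc took 84.6% to 94.5% in the libraries labelled Islr knockout and 87.5% to 94.8% in those labelled control.

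Fstl1, a secreted follistatin-like glycoprotein known to modulate BMP signalling, came second with a median of 38.8 FPKM over the 6 libraries. The ratio of Sparc FPKM to Fstl1 FPKM was 36.9, 15.0 and 10.6 in the libraries labelled Islr knockout 1, 2 and 3, and 39.6, 18.6 and 14.6 in those labelled control 1, 2 and 3. The ratio was thus highest in both libraries of number 1. Smoc2, a modular calcium-binding protein of basement membranes, followed with a median of 4.75 FPKM. The ranges of these 3 genes over the 6 libraries did not overlap (592 to 829, 20.0 to 76.5 and 3.15 to 14.9 FPKM). The other 5 members lay near or below 1 FPKM, with medians of 0.860 for Spock1, 0.757 for Spock2, 0.696 for Smoc1, 0.340 for Sparcl1 and 0.159 for Spock3. Their ranges overlapped, so no order among these 5 holds beyond the spread between libraries. Spock1 had the widest range among those with reads in every library, from 0.116 to 2.68 FPKM.

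**Figure D1:**
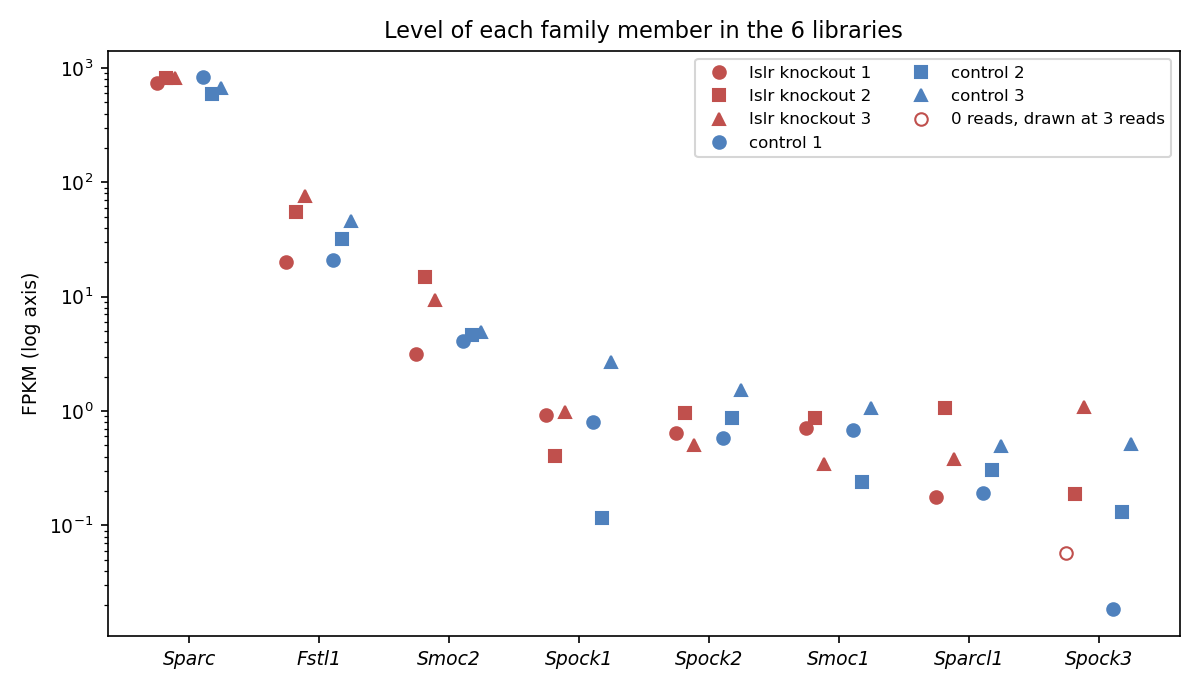
Deposited FPKM (log axis) of the 8 family members, ordered by median, with 1 point per library; red points are libraries labelled Islr knockout, blue points those labelled control, and the marker shape gives the replicate number. Sparc (592 to 829 FPKM), Fstl1 (20.0 to 76.5) and Smoc2 (3.15 to 14.9) are separated, and the other 5 overlap; the open circle is a library with 0 reads on Spock3, drawn at the value of 3 reads, and the lowest point is a library with 1 read.

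Sparc (ENSMUSG00000018593, chromosome 11 from 55394500 to 55423183 on the minus strand of GRCm38) encodes the collagen-binding glycoprotein also called osteonectin. It held 31909, 34823 and 31470 scaled reads in the libraries labelled Islr knockout 1, 2 and 3, and 35643, 26619 and 26972 in those labelled control 1, 2 and 3. The groups overlapped, because the highest library was the one labelled control 1, and the library labelled Islr knockout was the higher of its pair in numbers 2 and 3 but not in number 1. The log2 fold change was 0.15 ± 0.26 (SE, n = 3 per group), and its 95% interval reached from -0.44 to 0.74 (adjusted p = 1.0, limma); with the replicate block the interval ran from -0.29 to 0.59 (adjusted p = 0.943). Both intervals lie within a 2-fold change in either direction. Leaving out the library labelled control 1 gave a log2 fold change of 0.29, while leaving out control 2 gave 0.077 and control 3 gave 0.086. Sparc was also among the steadiest abundant transcripts: its SD over the 6 libraries was 0.18 on the log2 scale, against a median of 0.41 over the 245 genes with a mean of at least 10000 scaled reads, of which 9 had a smaller SD.

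The 300 bases around the RefSeq start of Sparc are shown because this gene is by far the most abundant member and the one the study names. They lie at chr11:55420031-55420330 on the minus strand of GRCm38.p6, from 250 bases before the start to 50 after; the gene span of the deposited table reaches further upstream. Capitals mark E-boxes (CANNTG), the motif bound by MyoD and other basic helix-loop-helix factors.
Sparc promoter: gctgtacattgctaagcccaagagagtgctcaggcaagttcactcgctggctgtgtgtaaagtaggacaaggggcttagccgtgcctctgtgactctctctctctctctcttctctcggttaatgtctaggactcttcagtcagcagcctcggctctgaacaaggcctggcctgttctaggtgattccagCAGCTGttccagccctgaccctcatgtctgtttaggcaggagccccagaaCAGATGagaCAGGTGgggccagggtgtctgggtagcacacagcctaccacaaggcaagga
The window holds 3 E-boxes, which begin 60, 10 and 1 bases before the start. An E-box is found in 72.3% of the 32851 mouse promoter windows of this length, on either strand. No match was found in this window to the MCAT motif CATTCC, which TEAD factors bind, to the AP-1 motif TGANTCA or to the TATA box TATAAA, which occur in 14.7%, 7.81% and 13.6% of all windows; these motifs do not overlap one another here.

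Sparc is also known as a target of the miR-29 family, and Fstl1 as a target of the muscle microRNA miR-206. Small RNAs were not measured in this series, so the sequences are given only as a description of the transcripts. The mature RefSeq sequences are printed with the seed (bases 2 to 8) in capitals; the 3 miR-29 forms share 1 seed.
mmu-miR-29a-3p: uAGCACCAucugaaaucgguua
mmu-miR-29b-3p: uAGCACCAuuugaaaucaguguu
mmu-miR-29c-3p: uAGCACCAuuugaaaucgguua
mmu-miR-206-3p: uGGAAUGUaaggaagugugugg
A site was counted as a 7-base match to bases 2 to 8 or a match to bases 2 to 7 followed by A in the 3' UTR of the longest coding GENCODE transcript. For miR-29 these letters are TGGTGCT and GGTGCTA, and for miR-206 ACATTCC and CATTCCA; in capitals below is the match.
Sparc, miR-29 match at base 110 of the 3' UTR: gcctggggataaGGTGCTAacatagat
Sparc, miR-29 match at base 143 of the 3' UTR: gaatacattaacGGTGCTAaaaaaaaa
Fstl1, miR-29 match at base 646 of the 3' UTR: ttgttaaccaaaGGTGCTAtttctctg
Fstl1, miR-206 match at base 1971 of the 3' UTR: gagggcaagcccACATTCCtcttctgc
Sparc and Fstl1 were the 2 of 8 members with a miR-29 match, which 15.9% of 20869 mouse genes have. A miR-206 match was found in 3 members, Fstl1, Spock1 and Spock2, and in 16.7% of all genes. The 3' UTRs of Fstl1, Spock1 and Spock2 are also the longest of the family at 2588, 3201 and 3717 bases, against 1085 in Sparc and a median of 946 over all genes.

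Fstl1 (ENSMUSG00000022816, chromosome 16 from 37776873 to 37836514) held 1425, 3834 and 4880 scaled reads in the libraries labelled Islr knockout 1, 2 and 3, and 1484, 2354 and 3034 in those labelled control 1, 2 and 3. Both libraries of number 1 were low, and the groups overlapped. The library labelled Islr knockout held 0.960, 1.63 and 1.61 times the reads of its same-numbered control in numbers 1, 2 and 3. The log2 fold change was 0.44 ± 0.48 (SE, n = 3 per group; limma adjusted p = 1.0), and with the replicate block 0.44 ± 0.22, with an interval from -0.05 to 0.94 (unadjusted p = 0.0721, adjusted p = 0.920, limma). Without a block, leaving out Islr knockout 3 gave 0.090, control 1 gave 0.16, Islr knockout 2 gave 0.26, control 3 gave 0.68 and Islr knockout 1 gave 0.98. Fstl1 varied more than most genes of its level: 3609 of 3956 genes with a mean of 1000 to 10000 scaled reads had a smaller SD than its 0.72 on the log2 scale. Its promoter window, at chr16:37776805-37777104 on the plus strand, is printed as the counterpart to that of Sparc and holds none of the 4 motifs, so nothing in it is in capitals.
Fstl1 promoter: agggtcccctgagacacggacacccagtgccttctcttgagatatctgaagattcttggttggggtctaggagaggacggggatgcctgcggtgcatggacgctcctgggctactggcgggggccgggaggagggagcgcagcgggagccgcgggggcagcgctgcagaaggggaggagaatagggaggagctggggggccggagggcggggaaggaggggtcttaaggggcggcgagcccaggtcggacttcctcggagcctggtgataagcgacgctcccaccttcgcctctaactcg
This window was 66.7% G and C, against 55.3% in that of Sparc and a median of 52.7% over all windows.

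Smoc2 (ENSMUSG00000023886, chromosome 17 from 14279506 to 14404790) had the largest fitted difference among the members by size. It held 235, 1087 and 631 scaled reads in the libraries labelled Islr knockout 1, 2 and 3, and 307, 360 and 338 in those labelled control 1, 2 and 3. The libraries labelled control lay close together, while those labelled Islr knockout held both the lowest and the highest values, so the groups overlapped. The means were 651 ± 426 and 335 ± 26.9 scaled reads (SD, n = 3 each). The log2 fold change was 0.70 ± 0.50 (SE), and its interval reached from -0.44 to 1.84 (adjusted p = 1.0, limma); with the replicate block the SE was 0.35 (unadjusted p = 0.0783, adjusted p = 0.920, limma). Leaving out the library labelled Islr knockout 2 gave 0.20, and leaving out that labelled Islr knockout 1 gave 1.31. Its relative Smoc1 (ENSMUSG00000021136, chromosome 12 from 81026808 to 81186414), known to antagonise BMP signalling in development, held 46.8, 55.4 and 20.1 scaled reads in the libraries labelled Islr knockout 1, 2 and 3, and 44.4, 16.3 and 65.6 in those labelled control 1, 2 and 3. The order within pairs turned round between numbers 2 and 3, and the log2 fold change was 0.04 ± 0.66 (SE; limma adjusted p = 1.0) and -0.05 by edgeR.

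Sparcl1 (ENSMUSG00000029309, chromosome 5 from 104079111 to 104113733), the closest relative of Sparc and also called hevin, was scarce. It held 8, 58 and 21 unscaled reads in the libraries labelled Islr knockout 1, 2 and 3, and 9, 14 and 28 in those labelled control 1, 2 and 3. The library labelled Islr knockout 2 stood above the other 5, and the groups overlapped. The log2 fold change was 0.37 ± 0.74 (SE), and its interval reached from -1.31 to 2.05 (adjusted p = 1.0, limma); leaving out Islr knockout 2 gave -0.29. An antisense gene overlaps Sparcl1 and another overlaps Smoc2, and the sources do not say whether counting used strand.

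The Spock genes encode testicans, secreted proteoglycans of the family, some of which are known to hold back proteases. Spock1 (ENSMUSG00000056222, chromosome 13 from 57421195 to 57908332) held 79.9, 34.1 and 76.2 scaled reads in the libraries labelled Islr knockout 1, 2 and 3, and 68.9, 10.5 and 216 in those labelled control 1, 2 and 3. Both libraries of number 2 were the lowest, and that labelled control 3 was the highest. The log2 fold change was 0.11 ± 0.99 (SE; limma adjusted p = 1.0) but -0.64 by edgeR, and it also changed sign without the library labelled control 2 (-1.03), Islr knockout 1 (-0.10) or Islr knockout 3 (-0.07).

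Spock2 (ENSMUSG00000058297, chromosome 10 from 60106219 to 60135198) held 62.7, 92.3 and 44.4 scaled reads in the libraries labelled Islr knockout 1, 2 and 3, and 56.7, 89.7 and 140 in those labelled control 1, 2 and 3. Numbers 1 and 2 were alike between the groups, with ratios of 1.11 and 1.03, and number 3 stood apart with a ratio of 0.317. The log2 fold change of -0.48 ± 0.49 (SE; limma adjusted p = 1.0) was the one below 0 among the 8 members. Spock3 (ENSMUSG00000054162, chromosome 8 from 62951009 to 63357103) was near the detection limit, with 0, 12 and 70 reads in the libraries labelled Islr knockout 1, 2 and 3, and 1, 7 and 34 reads in those labelled control 1, 2 and 3. The 0 reads in the library labelled Islr knockout 1 allow up to 3 reads, or 3.42 scaled reads, by counting error alone. Its log2 fold change was 0.10 ± 1.56 (SE, limma adjusted p = 1.0). The sign depended on the added constant, since it was -0.72 with a constant of 0.1 in place of 1. Fits on the reads gave 0.84 by edgeR with TMM and 0.86 by DESeq2. Without the library labelled control 1 limma gave -0.89, and without Islr knockout 3 it gave -1.26. Without Islr knockout 1 it gave 1.69, and without control 3 it gave 1.03.

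Across the family, 0 of 8 members passed the adjusted threshold for genotype label, where 0.0% of the 20344 genes tested passed (limma; 276 genes had an unadjusted p under 0.05, or 1.36%). With the replicate block 0 members and 0.0% of genes passed, and 933 genes (4.59%) had an unadjusted p under 0.05, no member among them. By edgeR on the recovered reads 0 of 14214 genes passed, with 162 at an unadjusted p under 0.05. No member had groups that did not overlap, against 4.76% of all genes (2.65% higher and 2.11% lower in the libraries labelled Islr knockout). The library labelled Islr knockout was the higher one in all 3 pairs for none of the members, against 12.2% of all genes. In the authors' deposited table the log2 fold changes of the members ran from -0.64 for Spock1 to 0.96 for Smoc2, and the adjusted p was 1.0 for each.

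**Figure D2:**
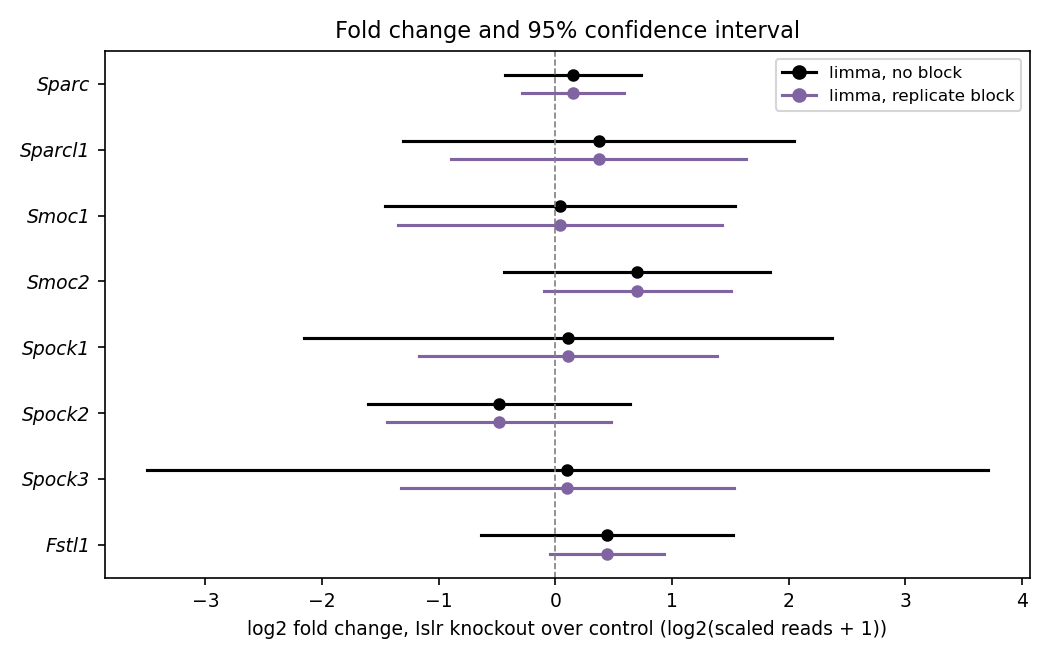
Log2 fold change of each member, Islr knockout over control on the log2(scaled reads + 1) scale, with the 95% confidence interval from limma without a block (black) and with the replicate number as a block (purple). All 16 intervals include 0; that of Sparc is the narrowest (-0.44 to 0.74 without the block) and that of Spock3 the widest (-3.50 to 3.71).

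Replicate number separated some members where genotype did not. A limma F-test for number, with genotype in the model, called 2 of 8 members, Spock3 (adjusted p = 0.0235) and Fstl1 (adjusted p = 0.0359), where 6.35% of all genes were called. The mean of both libraries was 1455, 3094 and 3957 scaled reads in numbers 1, 2 and 3 for Fstl1, and 0.555, 9.61 and 43.8 for Spock3. Spock1, with means of 74.4, 22.3 and 146, did not pass (adjusted p = 0.0884, limma), but it did by the DESeq2 likelihood ratio test (0.0250), by limma with no filter on low genes (0.00457) and by limma without Islr knockout 2 (0.0383). Smoc2, with means of 271, 723 and 485, did not pass (adjusted p = 0.198, limma). Sparc had means of 33776, 30721 and 29221 in numbers 1, 2 and 3 (adjusted p = 0.774). For Sparcl1, Smoc1 and Spock2 the adjusted p was 0.297, 0.831 and 0.664. Both calls depended on the tool and the pseudocount, and that of Fstl1 also on the filter. The adjusted p of Spock3 was 0.0502 in edgeR and 0.00102 in the DESeq2 likelihood ratio test. In limma the adjusted p of Spock3 was 6.0e-05 with no filter, 0.0471 with a mean of at least 10 and 0.0655 with a pseudocount of 0.1. That of Fstl1 was 0.0700 in edgeR, 0.00176 in the DESeq2 likelihood ratio test, 2.64e-04 in limma with no filter, 0.0532 with a mean of at least 10 and 0.0615 with a pseudocount of 0.1. With a library left out, that of Fstl1 was 0.0296 without Islr knockout 2, and rose to 0.321 without Islr knockout 1, 0.175 without Islr knockout 3, 0.161 without control 3, 0.0796 without control 1 and 0.0590 without control 2. That of Spock3 rose to 0.156 without Islr knockout 3, 0.111 without control 3, 0.105 without Islr knockout 1 and 0.0605 without control 2, and was 0.0410 without control 1 and 0.0292 without Islr knockout 2. The labels do not say what a number marks.

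**Figure D3:**
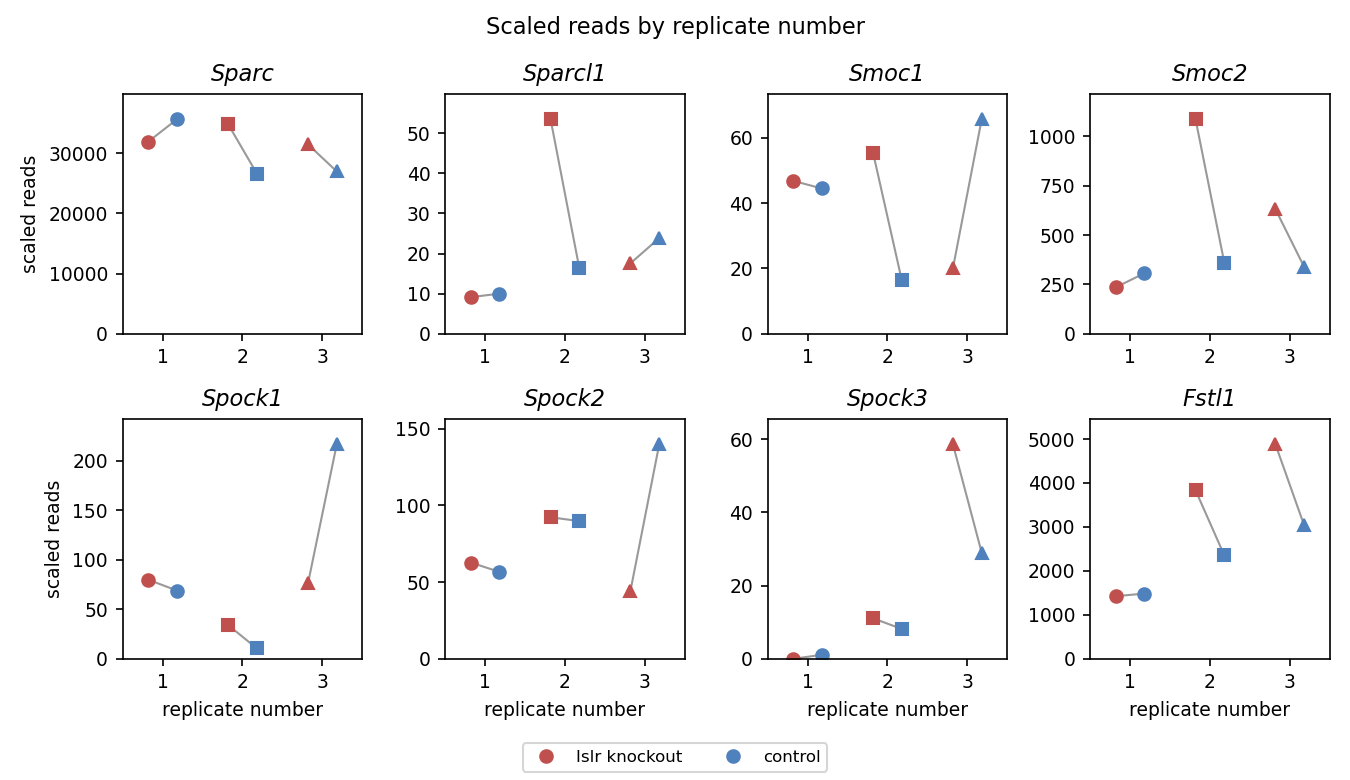
Scaled reads of each member by replicate number, with the library labelled Islr knockout (red) left of that labelled control (blue) and a line joining libraries of the same number; each axis starts at 0. Fstl1 is low in both libraries of number 1 (1425 and 1484) and Spock3 is at 0 and 1.11 there, while Sparc stays between 26619 and 35643 throughout.

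Markers of muscle differentiation and of other cell types also differed between these libraries, and their part in the family's differences was not tested. In every marker list 0 genes passed the adjusted limma threshold between the groups. Of all genes tested, 53.0% were on the higher side in the libraries labelled Islr knockout. Myog, the factor that marks differentiating myoblasts, held 37228, 1998 and 5737 scaled reads in the libraries labelled Islr knockout 1, 2 and 3, and 43370, 417 and 43261 in those labelled control 1, 2 and 3. Both libraries of number 1 were thus high in Myog and lowest in Fstl1, while that labelled control 3 was high in Myog and also held more Fstl1 than that labelled control 2. The 8 genes of differentiating muscle summed to 322784, 10022 and 30187 scaled reads in the libraries labelled Islr knockout 1, 2 and 3, and 340337, 2582 and 148426 in those labelled control 1, 2 and 3, with 2 of 8 on the higher side in knockout. The 7 satellite cell and myoblast markers summed to 78215 to 172849 in the libraries labelled Islr knockout and 90609 to 181098 in those labelled control, with 0 of 7 on the higher side. This sum did not follow Pax7, which was highest (2729 scaled reads) in the library labelled control 2, where the sum was 90609. Summed over the list, the 8 fibroblast markers ranged from 848 to 2877 scaled reads in the libraries labelled Islr knockout and from 299 to 1858 in those labelled control, with 7 of 8 on the higher side in knockout. The 7 endothelial markers summed to 314 to 1470 in the libraries labelled Islr knockout and 309 to 636 in those labelled control, all 7 on the higher side. The 7 macrophage markers summed to 98.1 to 896 in the libraries labelled Islr knockout and 143 to 295 in those labelled control, 6 of 6 tested on the higher side, with Ptprc, the pan-leukocyte gene, at 0 in 4 of 6 libraries. The 5 Schwann cell markers summed to 472 to 1416 in the libraries labelled Islr knockout and 421 to 486 in those labelled control, with 5 of 5 on the higher side. The 6 pericyte and smooth muscle markers summed to 2477 to 4763 in the libraries labelled Islr knockout and 2393 to 3685 in those labelled control, with 5 of 6 on the higher side. The 3 tenocyte markers summed to 1553 to 2321 in the libraries labelled Islr knockout and 1463 to 2986 in those labelled control, with 1 of 3 on the higher side. The library labelled Islr knockout 2, where Smoc2 and Sparcl1 were highest, had the highest endothelial and Schwann sums. That labelled Islr knockout 3 came next in both sums (1290 and 1376). It held 631 scaled reads of Smoc2, against 1087 in Islr knockout 2, and 17.6 of Sparcl1, against 53.5. The library labelled control 3 held more Sparcl1 (23.9), with sums of 442 and 475. In RNA from many cells, fewer cells of a type and less RNA per cell cannot be told apart.

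The genes whose pattern over the 6 libraries was most like that of each member were taken by the Pearson correlation on the log2(scaled reads + 1) scale, searched among 11445 genes whose mean reached 50. With 6 libraries that form pairs, many genes reach a high value by this measure, and it is given only as a description. For Sparc the nearest were Pdgfa (r = 0.953), which encodes a platelet-derived growth factor chain, Arf2 (r = 0.952) and Coq10b (r = 0.944), and 17 genes had r above 0.9. For Fstl1 they were Gpr149, Dnajc10 and Jade2 (r = 0.994 to 0.998), and 340 genes had r above 0.9. For Smoc2 they were Loxl3, a lysyl oxidase that cross-links matrix, Hspa1b and Notch4 (r = 0.981 to 0.986). For Spock1 they were Wnt4, Rilpl1 and Lrpap1 (r = 0.995 to 0.998), and for Spock3 Mapk8ip1, Slc46a1 and Dynll2 (r = 0.995 to 0.996). For Sparcl1 they included Rps4l (r = 0.965) and Nptn (r = 0.962), for Smoc1 Tmem214, Fbxo9 and Inpp5a (r = 0.973 to 0.980), and for Spock2 Tlcd1, Atpif1 and Gng5 (r = 0.961 to 0.968).

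Genes that work with the family were counted by list, and in each list 0 members passed the adjusted limma threshold between the groups, with or without the block. Among all genes tested the median log2 fold change was 0.03, and 53.0% were on the higher side in the libraries labelled Islr knockout. The lists were chosen with earlier results of these data known, so their counts on the higher side are given only as a description. Of 18 tested ligands and receptors of Sparc, among them collagens and integrin subunits, 17 lay on the higher side (median log2 fold change 0.40). The member with the smallest p in the blocked fit was Pdgfb, a growth factor chain bound by Sparc, with 664, 738 and 459 scaled reads in the libraries labelled Islr knockout 1, 2 and 3, and 667, 359 and 146 in those labelled control 1, 2 and 3 (limma with block, unadjusted p = 0.0185, adjusted p = 0.920). Thbs1, another matricellular protein, followed with a mean of 37978 ± 2373 in the libraries labelled Islr knockout and 23669 ± 12165 scaled reads in those labelled control (SD, n = 3 each; adjusted p = 0.920 by limma with block). Thbs1 and the integrin subunit gene Itga5 were the 2 of 18 whose groups did not overlap, both higher in the libraries labelled Islr knockout, against 2.65% of all genes.

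Of 13 tested enzymes that cut or cross-link family members, or are held back by them, 10 lay on the higher side (median log2 fold change 0.52). Mmp9, a gelatinase, held 4.56, 113 and 187 scaled reads in the libraries labelled Islr knockout 1, 2 and 3, and 1.11, 6.99 and 14.5 in those labelled control 1, 2 and 3. The library labelled Islr knockout was the higher one in each pair, but that of number 1 lay below 2 libraries labelled control (limma with block, unadjusted p = 9.19e-04, adjusted p = 0.920). The order within number 1 rests on few reads, since 3 reads equal 3.42 scaled reads in Islr knockout 1 and 3.33 in control 1. Mmp3, a stromelysin known to cleave Sparc, held 36.5, 211 and 1589 scaled reads in the libraries labelled Islr knockout 1, 2 and 3, and 64.4, 37.3 and 350 in those labelled control 1, 2 and 3 (adjusted p = 0.920 by limma with block). Between replicate numbers, 3 of these 13 genes were called by the limma F-test, Mmp9, Ctsb and Ctsl, against 6.35% of all genes. In the other lists that test called 0 of the 18 Sparc ligands and receptors, 0 of the 19 BMP and Fstl1 genes and 1 of the 24 ERK genes, the immediate early gene Egr1.

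Of 19 genes of the BMP and Fstl1 pathway, 15 lay on the higher side (median log2 fold change 0.30). Bmp2 held 43.4, 130.1 and 242 scaled reads in the libraries labelled Islr knockout 1, 2 and 3, and 35.6, 26.8 and 61.4 in those labelled control 1, 2 and 3. Bmp7 held 11.4, 30.4 and 34.3 scaled reads in the libraries labelled Islr knockout 1, 2 and 3, and 6.67, 5.83 and 6.82 in those labelled control 1, 2 and 3. In Islr knockout 1 a count of 3 reads equals 3.42 scaled reads, and in control 3 it equals 2.56. The gap between 11.4 and 6.82 therefore rests on few reads. The groups did not overlap for Bmp7, the 1 such gene of the 19 (4.76% of all genes, 2.65% higher in the libraries labelled Islr knockout), a share near that of all genes, and neither ligand passed the test (limma with block, adjusted p = 0.920 each).

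Of 24 genes of the ERK cascade and its output, the pathway the title links to Sparc, 18 lay on the higher side (median log2 fold change 0.14). Dusp6, the phosphatase that feeds back on ERK, held 1141, 1560 and 2308 scaled reads in the libraries labelled Islr knockout 1, 2 and 3, and 1051, 1229 and 692 in those labelled control 1, 2 and 3. Shc1, an adaptor upstream of Ras, averaged 3227 ± 1295 scaled reads in the libraries labelled Islr knockout and 2214 ± 393 in those labelled control (SD, n = 3 each). The groups did not overlap for 2 of the 24, Fos, an immediate early gene (higher in the libraries labelled Islr knockout), and Map2k2, an ERK kinase (lower). Non-overlap occurred in 2.65% of all genes on the higher side and 2.11% on the lower, so 1 of 24 in each direction is near the share of all genes. The adjusted p of Dusp6 and Shc1 was 0.920 in limma with the block. RNA levels do not measure ERK phosphorylation, nor the amount of Sparc protein.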

How the data were processed

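Gene expression was measured by RNA-seq in 6 libraries. Per the submitters' processing notes DESeq2 1.16.1, edgeR 3.18.1, HISAT2 2.0.5, HTSeq and Trimmomatic were used (roles not given); the sources used here give no build, annotation or strand handling. The authors deposited a main table with a signal per gene, which is the read count over a per-library size factor, and FPKM; from the values, the deposited FPKM divides reads by 1 length per gene and by all reads on genes. It also holds the authors' p-value, adjusted p-value and log2 fold change, per the file headers. A deposited table of raw counts covers 480 of its genes. Dividing by the value of 1 read gave whole reads (within 0.01) for 100.0% of values, and all 480 genes had the deposited count. There are 6 further per-sample columns, which were left out. Damaged lines (36) were dropped. The column of the library labelled control 1 carries its label's number with 2 digits exchanged; the other 5 match. Of 27093 Ensembl genes, 27065 are in GENCODE M21 (GRCm38) and 26940 at the same position, including all 8 members.

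limma 3.58.1 (trend, robust) was fitted two-sidedly to the log2(scaled reads + 1) values of the 20344 genes whose mean reached 1, and p-values were adjusted over all of them (Benjamini-Hochberg, threshold 0.05); this scale understates changes of low genes. All 8 members passed the filter on the mean over all libraries. The main fit has no block. Replicate numbers were taken to pair libraries because same-numbered deviations correlated above 0.1 in all 3 pairs; the labels do not state it. Alternatives were edgeR 4.0.16, DESeq2 1.42.0, limma-voom, other scalings, filters and pseudocounts, a replicate block, and leaving out libraries. The limma, edgeR, DESeq2 and voom fits were run on simulated data with less spread than these libraries and no replicate pairing. That run cannot show how the fits perform on data like these. It did not include DESeq2 with the replicate block or the DESeq2 likelihood ratio test. The members and gene lists were chosen with earlier results of these data known. Named genes are the members, Islr, the 3 genes most alike to each member and, per list, the 2 with the smallest p in the blocked fit. One gene that this rule names is not reported here. Itga5, Ctsb, Ctsl, Egr1, Fos, Map2k2, Myog, Ptprc and Pax7 were named outside this rule after their values were seen. Promoter windows (5 of 8 members) and miRNAs are RefSeq's (GRCm38.p6); 3' UTRs are from GENCODE. Intervals and the limit of 3 reads cover sampling of libraries and counting error only. Analyses used R 4.3.3 and Python 3.11.15.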

Additional observations from a re-analysis of the deposited data

How the results depend on the processing

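No member passed the adjusted threshold between the groups under any alternative run; the lowest adjusted p was 0.163, for Smoc2 in the blocked fit without number 1. Genes past it numbered 7 by DESeq2 with the replicate block, 93 by limma with the block without number 1, and 0 in the other fits. The cause of these shifts was not tested. Between replicate numbers 1291 genes passed; the count was 795 with a mean of at least 10, 3309 with no filter, 566 with a pseudocount of 0.1, 514 by edgeR, 2658 by the DESeq2 likelihood ratio test and 291 to 2513 with a library left out (291 without Islr knockout 1, 2513 without Islr knockout 2). Sparc, Smoc2 and Fstl1 kept their direction in all alternatives run, but with a library left out their log2 fold changes ranged over 0.077 to 0.29, 0.20 to 1.31 and 0.090 to 0.98. Log2 fold changes turned for Smoc1 (-0.048 by edgeR with TMM, -0.055 by edgeR with DESeq2 size factors, -0.057 by DESeq2, -0.040 by limma-voom), Spock1 (-0.64 by edgeR with either scaling and by DESeq2, -0.020 by edgeR with the replicate block) and Spock3 (-0.72 and -0.089 with pseudocounts of 0.1 and 0.5). In the blocked fit they turned without number 2 for Sparcl1 (-0.27), Smoc1 (-0.79), Spock1 (-0.64) and Spock3 (-0.043), and without number 3 for Spock2 (0.092) and Spock3 (-0.34). With a library left out, those of the other 5 ranged over -0.29 to 0.92 for Sparcl1, -0.52 to 0.47 for Smoc1, -1.03 to 1.09 for Spock1, -0.81 to -0.16 for Spock2 and -1.26 to 1.69 for Spock3. Fewer than 100 reads in most libraries limit Sparcl1, Smoc1, Spock1, Spock2 and Spock3.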
